A study of Brassica oleracea with 107 samples.

Results

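These are 150 genes of the Brassica oleracea embryo whose transcripts were lower at 26 °C than at 16 °C on day 1, with a temperature difference of at most 0.5 log2 units on day 3 and a day 22 level at 16 °C within 2 units of day 0. They were chosen by measured values from the 13120 genes of the embryo table, on the log2(TPM + 1) scale. TPM scales reads for gene length and for the size of the library. A gene was eligible when 26 minus 16 °C on day 3 lay between -0.5 and 0.5 and day 22 minus day 0 at 16 °C lay between -2 and 2. Of the 7528 eligible genes, the 150 with the most negative 26 minus 16 °C on day 1 were taken as members. The columns of the rule (days 0, 1, 3 and 22 at 16 °C, and days 1 and 3 at 26 °C) chose the genes, so their differences are described here and tested nowhere.

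Seeds of Brassica oleracea, a species grown as cabbage, were followed at 16 °C, at 26 °C and after a return from 26 to 16 °C, called recovery. Per the labels, all plants grew at 21 °C until bolting and then at 16 °C until embryos had bent cotyledons, and the temperatures were split from that stage. Embryos were dissected away from the endosperm, which kept the seed coat, and both were sequenced on days 0, 1, 3, 7, 15, 18 and 22. Day 0 was sampled at 16 °C, recovery on days 18 and 22, and endosperm also at hours 1, 24 and 72. The labels name no cultivar, do not say when the recovery plants were moved, and do not say from which event days or hours count.

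At the bent-cotyledon stage the embryo passes from building its organs to filling its cells with storage protein and oil, after which it dries. Temperature during this period is known to alter how fast seeds fill and how dormant they become. A response that appears within a day and is gone within a few days is usually called transient, in contrast to one that lasts as long as the warmth does. Which of the 2 forms these genes showed is the question put to the later days, to recovery and to the endosperm.

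Each group has 1 deposited value, which stands for 3 libraries (2 for endosperm at 16 °C on day 18), so there is no spread between replicates, no test and no p-value. A difference was called at 2-fold, that is 1 unit of log2(TPM + 1), in either direction. Of the members, 149 reached 1 TPM in an embryo column and enter these counts beside 11899 genes in all. The exception, Bo4g196110, was at 0.986 TPM at 16 °C against 0.103 TPM at 26 °C on day 1. The number of reads is unknown, and only genes selected by the authors are listed, so shares among all genes are shares of that selection. None of the 150 identifiers matched the reference gene table, and the files pair them with no name. No function, sequence or position can therefore be given, and the label of the tissues could not be checked against marker genes.

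On day 1 the members were at a median of 7.5 TPM at 16 °C against 3.38 TPM at 26 °C. The middle of their distribution, from the first to the third quartile, ran from 3.46 to 29.9 TPM at 16 °C and from 1.11 to 14.5 TPM at 26 °C. The log2 difference ranged from -3.47 to -0.84 with a median of -0.99, and the median ratio of TPM at 26 °C to TPM at 16 °C was 0.437. The difference was at least 2-fold for 66 members, against 3.93% of all genes, a comparison the rule itself fixes. The genes next to the limit were alike on either side. Bo3g134110 and Bo3g022320 were the last inside, both at -0.84, and Bo5g004170 and Bo3g054540 the first outside, both also at -0.84. Together the members held 0.523% of all TPM on day 1 at 16 °C and 0.237% at 26 °C. The day 1 level at 16 °C was under 5 TPM for 55 members and at 100 TPM or more for 16.

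The 2 most abundant members show the pattern at high levels. Bo3g052980 was at 570 TPM on day 0, and on day 1 at 647 TPM at 16 °C against 314 TPM at 26 °C. On day 3 it was at 494 TPM at 16 °C against 362 TPM at 26 °C. Its value at 26 °C was thus the lowest of the 5 early columns on day 1. Bo5g051940 was also among the 2 members with the most negative difference, of those at 5 TPM or more on day 1 at 16 °C. It was at 399 TPM on day 0, and on day 1 at 394 TPM at 16 °C against 126 TPM at 26 °C. On day 3 it was at 356 and 309 TPM. Here the 16 °C values hardly moved, and the 26 °C value alone was low. Bo9g176680, the member with the most negative difference, had another shape. It was listed at 0 on day 0, at 10.4 TPM on day 1 at 16 °C and at 0.0293 TPM on day 1 at 26 °C, then at 0.283 and 0.138 TPM on day 3. In this gene the 16 °C column of day 1 was high and the other early columns were near 0.

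**Figure D1:**
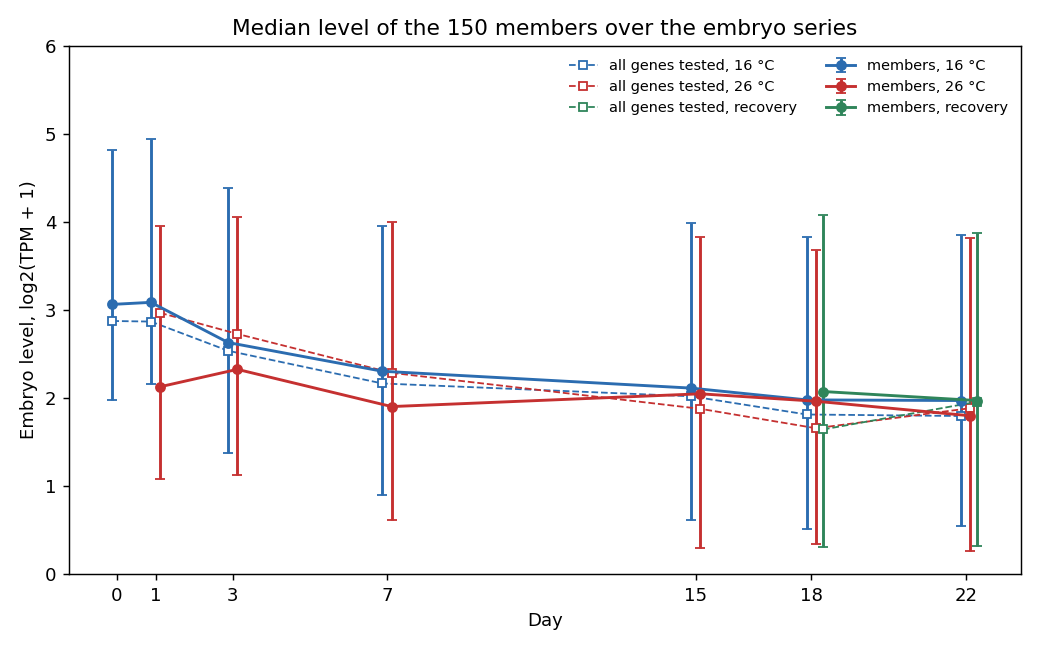
Median level of the 150 members in embryo, as log2(TPM + 1), by day, with bars from the first to the third quartile of the members (not an error of the median), and the median of the 11899 genes tested as open squares. On day 1 the members' median was 3.09 at 16 °C and 2.13 at 26 °C, while the medians of all genes were 2.87 and 2.97.

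Set against day 0, the day 1 difference came almost wholly from low values at 26 °C. For 142 members the 26 °C column of day 1 was at least 0.5 log2 units below day 0 while the 16 °C column stayed within 0.5 units of it. Of all genes, 15.3% had that form, and 15.6% were as low at 26 °C whatever their 16 °C value. The rule chose the members by their day 1 difference, so a larger share among them was built in. The split describes the members and tests nothing. In 6 members the 16 °C column was at least 0.5 units above day 0 and the 26 °C column within 0.5 units of it (0.336% of all genes), 1 member had both departures (0.126% of all genes), and 1 had neither by 0.5. In all genes too, the form with low values at 26 °C was the far more common, at 15.3% against 0.336%. The members' median was 0.88 units below day 0 at 26 °C, a log2 difference of -0.88, and 0.08 above it at 16 °C. The label of genes repressed on day 1 was thus met by the 142, and not by the 6.

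The clearest of the 142 by the size of the day 1 difference were Bo5g051940, given above, and Bo8g100630. This ranking is among members at 5 TPM or more on day 1 at 16 °C. Bo8g100630 was at 244 TPM on day 0, 260 TPM on day 1 at 16 °C and 94.9 TPM on day 1 at 26 °C. It was at 210 and 164 TPM on day 3, so that its 26 °C level lay below day 0 on both days. Among the 6, Bo3g184140 was at 22 TPM on day 0, 47.9 TPM on day 1 at 16 °C, 21.1 TPM on day 1 at 26 °C, and 19.4 and 18.8 TPM on day 3. Its 16 °C column of day 1 stood alone above 4 columns close to each other. Bo6g056350, the member with both departures, was at 39.2 TPM on day 0, with 62.7 TPM at 16 °C against 26.4 TPM at 26 °C a day later.

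**Figure D2:**
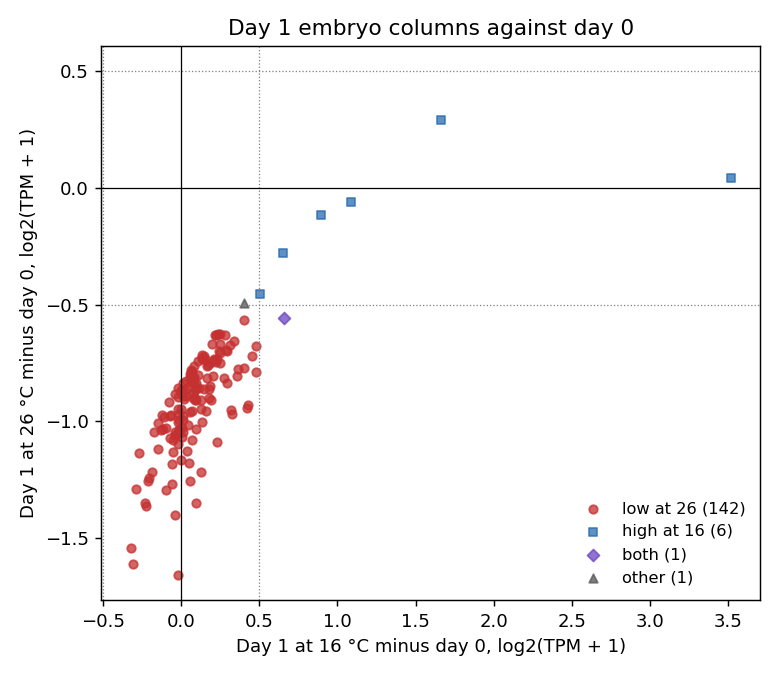
Each point is 1 of the 150 members, by its log2(TPM + 1) difference from day 0 in the day 1 column at 16 °C (horizontal) and at 26 °C (vertical), with dotted lines at 0.5 units. The 142 red points lie low at 26 °C and near 0 at 16 °C, and the 6 blue squares lie to the right, with Bo9g176680 farthest.

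By day 3 the gap had narrowed, to a median of -0.30, which the rule's window requires. It had not closed evenly. The 26 °C value was still the lower one in 131 members and the higher in 19, and 58 lay within 0.25 units. Among the other eligible genes it was the lower one in 36.3%. Against day 0, the 26 °C column of day 3 was still at least 0.5 units lower in 112 of the 150, against 23.2% of all genes, and in 86 after each column was centred on the median of all genes. The 16 °C column itself was within 0.5 units of day 0 in 91. No share of all genes was counted for the 86 and the 91. Day 3 minus day 0 at 26 °C had a median of -0.68 in members and -0.09 in all genes. At 16 °C it was -0.39 and -0.27. These columns belong to the rule, so the values describe the members and test nothing. By this description, the 26 °C level of most members was below that of day 0 on day 3.

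The narrowing had 2 sources, whose weight depended on the scaling. From day 1 to day 3 the members' median step was 0.16 at 26 °C and -0.57 at 16 °C, so on the deposited scale most of it came from lower values at 16 °C. In 78 members the 16 °C column was lower by 0.5 or more without a step up of that size at 26 °C, in 27 it was the reverse, in 4 both, and in 41 neither. Counted whatever the other temperature did, such a step down at 16 °C was found in 82 of 149 members and 22.1% of all genes. Such a step up at 26 °C was found in 31 members and 4.02% of all genes. The median level of all genes also differed between these days, by -0.33 at 16 °C and -0.24 at 26 °C. Relative to it, the members' median step was 0.40 at 26 °C and -0.24 at 16 °C. The counts turned to 26 with the lower 16 °C column, 55 with the higher 26 °C column, 1 with both and 68 with neither. No share of all genes was counted for these separate forms, before or after centring.

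Examples, apart from Bo9g176680 given above, whose step at 16 °C was the largest among the members, show both routes. Bo7g033050 was at 128 TPM on day 0, at 104 and 41.3 TPM on day 1 at 16 and 26 °C, and at 108 and 109 TPM on day 3. In this gene, and in Bo5g051940 above, the 26 °C level came back up toward a nearly level 16 °C course. Bo3g007180 was at 6.51 TPM on day 0, at 6.20 and 2.82 TPM on day 1, and only 1.67 and 1.81 TPM remained on day 3. Here both temperatures were low on day 3, and on day 1 the 26 °C value lay between the day 0 level and that low level.

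**Figure D3:**
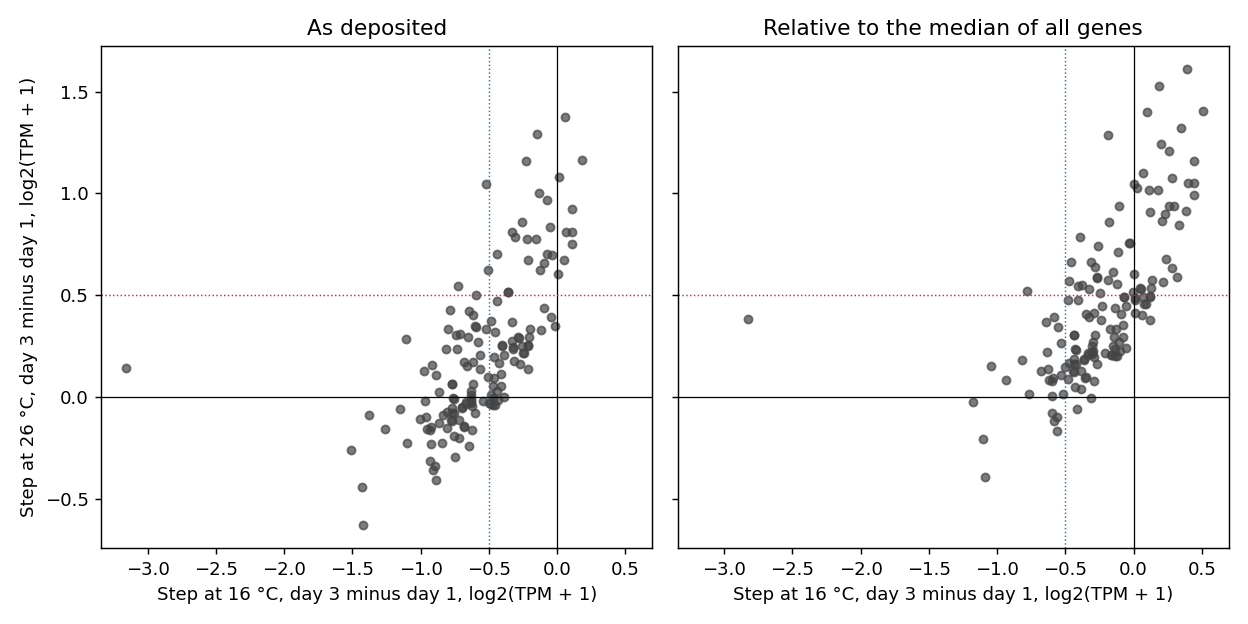
Each point is 1 of the 150 members, by its step from day 1 to day 3 at 16 °C (horizontal) and at 26 °C (vertical) in log2(TPM + 1), as deposited on the left and relative to the median of all genes on the right. Members left of the blue line were lower at 16 °C by 0.5 or more and members above the red line were higher at 26 °C by 0.5 or more; the counts of the first kind alone are 78 and 26, and of the second alone 27 and 55.

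At 16 °C the members were lower late in the series than on day 0, as most listed genes were. These comparisons use the day 0 column of the rule. The rule also held day 22 minus day 0 within 2 units in the members, a limit not set for all genes. Of 149 members, 58 had a day 7 level at least 2-fold under that of day 0, against 23% of all genes. The count of higher members was 0, against 1.84%. On day 15 there were 89 lower and 2 higher, against 38.6% and 7.21% of all genes. On day 18 there were 92 lower and 1 higher, against 45.5% and 7.48%. Among the other eligible genes, which met the same windows, 10.6%, 23.9% and 31.8% were lower on days 7, 15 and 18. Higher were 0.42%, 3.25% and 3.94% of them. The members' median log2 difference from day 0 was -0.80, -1.17 and -1.28 on these days, and that of all genes -0.60, -0.73 and -0.88. The median level of all genes itself differed from day 0 by -0.71, -0.86 and -1.06. After centring on it the counts of lower members were 3, 6 and 4, against 3.87%, 13.6% and 15.6% of all genes. Those of higher members were 2, 10 and 14, against 6.50%, 19.9% and 24.1%. All genes lacked the day 22 window here too, and the other eligible genes were not counted after centring. The members' median stayed under that of all genes with centring, at -0.09, -0.32 and -0.22 against 0.11, 0.13 and 0.18. Bo3g023890 was among the lowest relative to day 0 on both days 15 and 18, at 2.14 and 2.40 TPM against 18.2 TPM on day 0. Bo3g185540 went the other way, from 9.28 TPM on day 0 to 19.96 TPM on day 18.

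Day 7 was the first embryo day not used by the rule. The members were still somewhat lower at 26 °C, by small amounts. Their median was 3.94 TPM at 16 °C against 2.75 TPM at 26 °C, and the log2 difference had a median of -0.26 where all genes had 0.06 and the other eligible genes 0.05. It was below 0 in 121 of 149 members (81.2%), against 44.9% of all genes and 43.0% of the other eligible genes. At 2-fold, 1 member was lower, against 2.13% of all genes, and 3 were higher, against 8.6%. These were 0.671% and 2.01% of members, and the other eligible genes were at 0.113% and 2.75%. With a pseudocount of 0.1 the lower members were 19, or 12.8%, against 6.01% of all genes. Bo6g050970 was at 3.16 TPM at 26 °C against 8.60 TPM at 16 °C. Bo9g183100 was at 13.2 TPM at 26 °C against 3.31 TPM at 16 °C.

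From day 15 the members' median lay near 0, and by day 22 few of them were higher at 26 °C. Their median log2 difference was -0.13 on day 15, -0.05 on day 18 and -0.14 on day 22, against -0.18, -0.15 and -0.002 in all genes. On day 15, 11 members were lower at 26 °C and 5 higher, against 14.4% and 10.4% of all genes. On day 18 there were 15 lower and 14 higher, against 18.8% and 14.1%. On day 22 there were 20 lower and 9 higher, against 15% and 26%. The members' share of higher genes on day 22 was 6.04%, and that of the other eligible genes, which met the same windows, was 26.7%. Over days 7 to 22, 106 of the 150 members (70.7%) were past 2-fold on no day, as were 39.8% of all genes. In each of these columns between 41 and 57 members were under 1 TPM, where this scale understates changes. With a pseudocount of 0.1, 30, 23 and 33 members were lower on days 15, 18 and 22. These were 20.1%, 15.4% and 22.1% of members, against 27.7%, 33.5% and 26.9% of all genes. At least 1 late day was 2-fold lower in 16.7% of members and 28.2% of all genes, and 2-fold higher in 13.3% and 34.8%. Of the members, 60 were below 0 on all 4 days (28.3% of all genes were), and 12 were above 0 on all 4 (25.8% of all genes were). In these counts over the 4 days, all genes were not held to the windows of the rule. The other eligible genes were not counted for them.

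Single members departed widely on these late days. Bo8g100630 was higher at 26 °C, at 1317 TPM against 298 TPM on day 18 and 2013 TPM against 558 TPM on day 22. On day 1 its order between the temperatures was the opposite. There it was among the 3 members with the most negative difference, of those at 5 TPM or more at 16 °C. Bo6g086710 was lower at 26 °C, at 7.95 TPM against 37.5 TPM on day 18 and 2.06 TPM against 21.1 TPM on day 22. Bo3g052980, the most abundant member of day 1, was at 27.1 TPM against 142 TPM on day 22. Its 26 °C value lay under its 16 °C value on every day of the series. Bo9g176680 was at 17.4 TPM against 0.421 TPM on day 18 and 11.1 TPM against 1.82 TPM on day 22, again the reverse of day 1, and its 16 °C values of 8.67 TPM on day 15 and 0.421 TPM on day 18 were themselves far apart.

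In recovery embryos few genes, members or not, were past 2-fold from 26 °C. On day 18, 2 members lay above 26 °C and 1 below it, against 2.16% and 3.66% of all genes, and on day 22 there were again 2 and 1, against 2.67% and 1.09%. Relative to 16 °C, 11 members were higher and 2 lower on day 18, against 6.87% and 10.3% of all genes. On day 22, 9 were higher and 12 lower, against 18.4% and 9.17%. Of the 15 members lower at 26 °C on day 18, 2 were also lower in recovery, and of the 14 higher, 7 were also higher. On day 22 these were 11 of 20 and 7 of 9. No such share of all genes was counted. These comparisons share the 16 °C or the 26 °C column with those above. Bo6g086710 was at 19.96 TPM in recovery on day 18, between 7.95 TPM at 26 °C against 37.5 TPM at 16 °C, and at 5.70 TPM on day 22, again between the 2 temperatures. Bo8g100630 was at 720 TPM in recovery on day 18 and 1003 TPM on day 22, also between the 2.

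The endosperm with seed coat gives a measure of day 1 that the rule did not use. Of the 150 members, 103 are listed in the endosperm table, and the other 47 are not analysed there. On day 1 the 26 °C value was below the 16 °C value in 91 of the 103 (88.3%), against 39.3% of all 16338 listed genes, and the median log2 difference was -0.42 against 0.05. In endosperm on days 0 to 3, 82 members reached 1 TPM in a column. At 2-fold, 12 of these (14.6%) were lower at 26 °C, against 2.77% of all genes tested, and 0 were higher, against 7.43%. Among the other eligible genes 1.71% were lower. Of the 82, 8 reached 1 TPM in 16 °C columns alone, and 1 of the 12 was among these. No test stands behind these counts, since each group has 1 value. With a pseudocount of 0.1 the lower members were 19 (23.2%), against 4.65% of all genes.

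In endosperm too the low column was that of 26 °C, by a smaller amount than in embryo. The median of the 82 was 0.54 units below day 0 in the 26 °C column, a log2 difference of -0.54, and was -0.03 at 16 °C, while the medians of all genes tested were 0.08 and -0.02. In 42 of the 82 the 26 °C column was at least 0.5 units below day 0, against 13% of all genes, and in 2 the 16 °C column was at least 0.5 units above it, against 1.88%. Bo8g100630 was at 147 TPM on day 0, 164 TPM on day 1 at 16 °C and 63.9 TPM on day 1 at 26 °C. Bo9g183100 was at 20.8, 27.5 and 10.8 TPM in the same columns. In both genes the 26 °C value was the lowest of these 3 columns. Bo9g176680 was at 0.155 and 0.162 TPM in endosperm on day 1, so the high 16 °C value of the embryo had no counterpart there. Bo8g055770 was the reverse of the group, at 9.84 TPM at 26 °C against 5.36 TPM at 16 °C, short of 2-fold.

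The lower level in both tissues was not particular to the members. Apart from members, 279 genes reached 1 TPM in endosperm on days 0 to 3 and were 2-fold lower in embryo on day 1. Of these, 56 (20.1%) were 2-fold lower at 26 °C in endosperm on day 1. The 14.6% of members given above has another limit, since not all members were 2-fold lower in embryo. Of the 12 members 2-fold lower in endosperm, 9 were 2-fold lower in embryo too. In all, 468 genes were 2-fold lower in embryo on day 1, of which 66 are members, 237 lay outside the day 3 window and 289 outside the day 22 window.

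On day 3, where the rule asked that the embryo difference be small, the endosperm difference of the members was smaller than on day 1 but had not gone. It was below 0 in 75 of 103 members (72.8%), against 37.5% of all listed genes, with a median of -0.26 against 0.07. At 2-fold, 7 of the 82 were lower, against 3.7% of all genes tested, and 4 were higher, against 9.79%. Of the 12 members lower on day 1, 5 were still 2-fold lower and 3 were within 0.5 units. Bo9g183100 was at 1.81 TPM at 26 °C against 10.7 TPM at 16 °C, and Bo2g013150 at 39.4 and 127 TPM. Higher at 26 °C were Bo8g055770, at 13.5 against 2.63 TPM, and Bo2g137140, at 5.80 against 0.985 TPM.

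**Figure D4:**
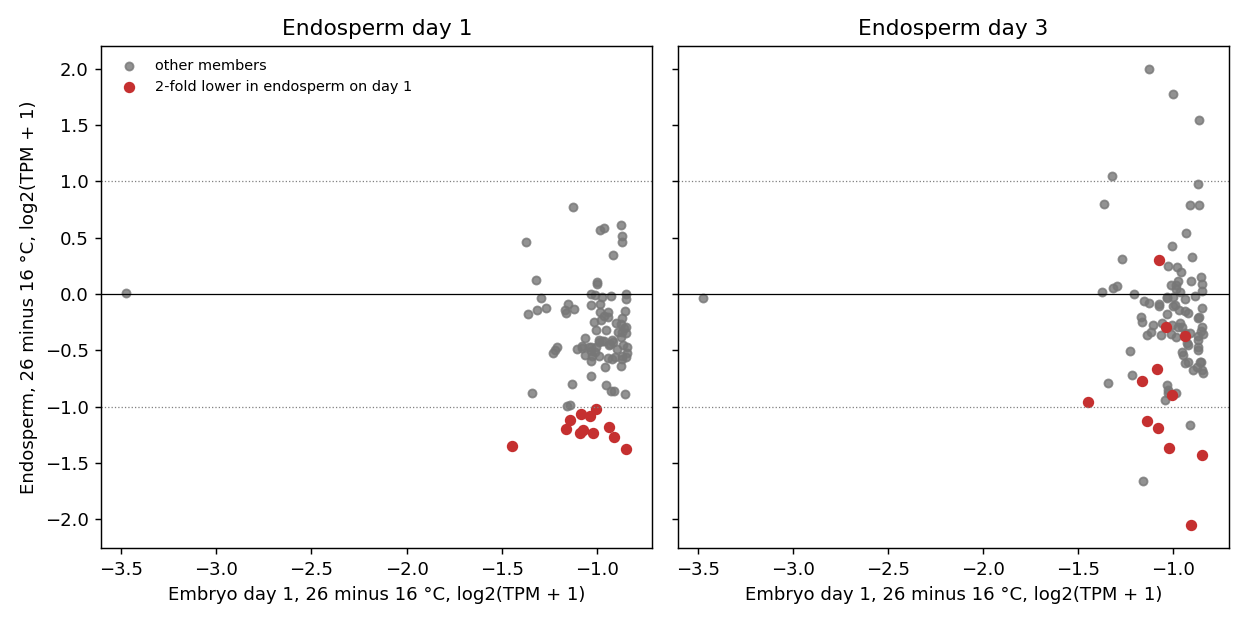
The 103 members listed in endosperm, by the 26 minus 16 °C difference in log2(TPM + 1) in embryo on day 1 (horizontal) and in endosperm (vertical) on day 1 (left) and day 3 (right), with dotted lines at 2-fold. The 12 red points were 2-fold lower in endosperm on day 1, and 5 of them were still so on day 3.

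Endosperm libraries of days 7 to 22 were made with another kit, so they are compared among themselves alone, over 88 members that reached 1 TPM. On day 7, 1 member was lower at 26 °C and 6 higher, against 3.74% and 11% of all genes. The median log2 difference was still -0.14 there, against 0.15 in all genes, and 63.6% of the members were below 0, against 39.3%. With a pseudocount of 0.1 the lower members were 13 (14.8%), against 8.49% of all genes. On day 15 there were 7 and 7, against 8.94% and 12%. On day 18 there were 13 lower and 7 higher, against 12.1% and 11.5%, and on day 22 there were 18 and 23, against 19.4% and 25.9%. From day 15 on, the members' share of lower genes was thus near that of all genes. Bo6g064680 was at 2.80 TPM at 26 °C against 21.7 TPM at 16 °C on day 15, at 3.41 and 16.0 TPM on day 18, and was listed at 0 and at 15.6 TPM on day 22. Bo1g149000 was lower at 26 °C as well, with 16.2 against 78.0 TPM on day 15 and 4.77 against 43.0 TPM on day 22. Bo8g100630 was higher at 26 °C late, as in embryo, at 602 against 232 TPM on day 18 and 1913 against 362 TPM on day 22.

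In the endosperm series labelled in hours, 92 members reached 1 TPM. At hour 1, 10 were lower at 26 °C and 5 higher, against 8.89% and 11.2% of all genes. At hour 24 there were 11 and 11, against 7.12% and 16.8%, and at hour 72 there were 17 and 18, against 13.1% and 22%. The members' median log2 difference was -0.12, 0.01 and 0.17, and that of all genes 0.05, 0.12 and 0.15. At hour 24 the share of members that were lower, 11.96%, was above that of all genes, with a median near 0. Bo2g137140 was higher at 26 °C at hour 1, with 135 against 19.99 TPM, and at hour 24, with 32.9 against 2.83 TPM. At hour 72 Bo9g003750 was at 116 against 1.31 TPM, while Bo9g085810 was at 8.77 against 74.0 TPM.

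**Figure D5:**
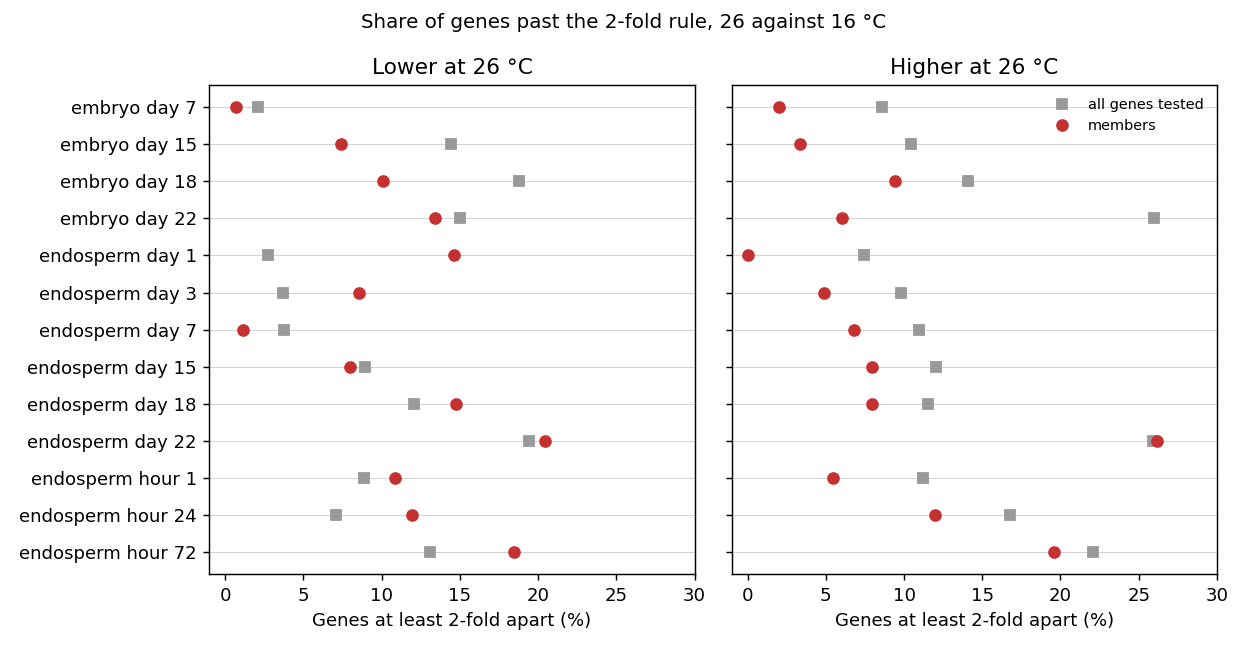
Share of genes at least 2-fold lower (left) or higher (right) at 26 °C than at 16 °C, in percent, for the members (red circles) and all genes tested (grey squares) in comparisons whose 26 °C column the rule did not use. The members stand above all genes in lower genes on endosperm days 1 and 3, at 14.6% and 8.54% against 2.77% and 3.7%. They do so too at hours 24 and 72, at 11.96% and 18.5% against 7.12% and 13.1%. The gap is smaller on endosperm days 18 and 22 and at hour 1. In lower genes they stand below all genes on endosperm days 7 and 15 and on embryo days 7, 15, 18 and 22. The embryo values are 0.671%, 7.38%, 10.1% and 13.4% against 2.13%, 14.4%, 18.8% and 15%. All genes were not held to the day 3 and day 22 windows. Among the other eligible genes, which met them and are not drawn, 0.113%, 8.10%, 14.1% and 13.7% were lower. In higher genes the members stand below all genes in every comparison shown but endosperm day 22, at 26.1% against 25.9%. On embryo days 7 and 22 and endosperm day 1 they are at 2.01%, 6.04% and 0% against 8.6%, 26% and 7.43%. The other eligible genes are at 2.75%, 26.7% and 4.56% there.

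The identifiers were the one feature outside expression on which the members could be described. The spread of all listed genes over the identifiers, and the rate of close pairs among them, were not counted. No concentration of members can therefore be read from these counts. Their first digit after Bo ran from 1 to 9, with 28 members at 3, 21 at 9 and between 11 and 17 at each other digit, and 1 member, Bo05470s010, had an identifier of another form. In 3 pairs the running numbers lay within 100 of each other, and these pairs were singled out after their values were seen. Bo5g051940 and Bo5g051960 had the same form on day 1, the latter at 67.1 TPM at 16 °C against 31.3 TPM at 26 °C. Late they parted, since on day 22 Bo5g051940 was at 83.5 TPM at 26 °C against 164 TPM at 16 °C, and Bo5g051960 at 108 and 82.4 TPM. Bo3g022290 was at 3.94 and 0.979 TPM on day 1 and Bo3g022320 at 16.3 and 8.63 TPM. Bo2g159140 was at 2.999 and 1.22 TPM and Bo2g159230 at 15.1 and 6.88 TPM, and on day 22 at 16 °C the first was at 0.00702 TPM and the second at 7.83 TPM. Whether the authors' counting could split reads between members of a pair was not tested.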

How the data were processed

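RNA was sequenced from 107 libraries, 45 of embryo and 62 of endosperm, in 36 groups. The values are TPM as the authors deposited them, in 2 tables with 1 column per group; how libraries were combined and how genes were selected is unknown here. Cutadapt 1.9.1, featureCounts and STAR 2.5 are named in the submitters' processing notes. Build, annotation and strand setting were not given in the sources used here. Per the labels' protocols, endosperm of days 7, 15, 18 and 22 was prepared with the Ovation system and all other samples with a standard Illumina protocol. The listed genes of an embryo column sum to between 49.1% and 71.3% of 1000000 TPM.

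Members and comparisons were chosen with earlier results of these data known. Differences were taken on log2(TPM + 1), which understates changes of weakly expressed genes. A gene had to reach 1 TPM in a column of its set to be counted: embryo (11899 genes kept), endosperm days 0 to 3 (12604), days 7 to 22 (14601) and hours (13203). With 1 value per group no test could be fitted, and a 2-fold rule of size was used. Selection and counting were checked on made-up values. Named identifiers were at most 2 higher and 2 lower members per comparison with the largest difference among those whose higher value reached 5 TPM, the 2 most abundant members, those at the limit, and the 2 with the most negative day 1 difference overall and in each day 1 form; later values of a gene so named, and exceptions the text marks, were added after values were seen. Lists of cold, clock, heat, dormancy and storage genes given by symbol could not be looked up, since 0 of 19732 identifiers matched the 53125 reference genes. Alternatives were a pseudocount of 0.1, median centring, rescaling without the 10 most abundant genes of each column, no filter, and changes to the rule. Python 3.11.15, pandas 2.3.3 and NumPy 2.4.6 were used.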

Additional observations from a re-analysis of the deposited data

How the results depend on the processing

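Each group has 1 value and no recorded depth, so no interval, detection limit or replicate check limits any difference given here. No paired analysis was possible because the columns carry no replicate number, and leaving out single libraries was not run for the same reason. Choosing the members was sensitive: of the 150, 58 were chosen again with a day 3 window of 0.25, 98 among genes at 5 TPM or more in a column, 68 after median centring, 68 with a pseudocount of 0.1 and 119 after rescaling. The count of members at least 0.5 units below day 0 at 26 °C on day 1 lay between 142 and 145 under every scaling tried. It was taken on the same 150 genes, chosen on the deposited scale for a low day 1 value at 26 °C. It therefore cannot tell whether genes chosen under another scaling have that form. Counting without the low-value filter moved no result by more than 1.5 times. The causes of the changes below were not tested.

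Median centring gave 55 members with the step up at 26 °C alone and 26 with the step down at 16 °C alone from day 1 to day 3, measures and alternatives added after the data were seen. Lower members at 26 °C became 3 on embryo day 7 and 6 on day 15, against 3.61% and 10.9% of all genes. In endosperm 12 were lower on day 3 and 6 on day 7, against 5.64% and 6.64%. On endosperm day 7, 3 were higher, against 7.49%. Lower members in recovery than at 16 °C on day 18 became 0, against 7.17% of all genes. At 16 °C against day 0, lower members became 3, 6 and 4 on days 7, 15 and 18, and higher members 2, 10 and 14. The shares of all genes for these are given above.

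Each column was also rescaled after removal of its 10 most abundant genes. Lower members at 26 °C were then 4, 18, 26 and 35 on embryo days 7, 15, 18 and 22. As shares of members they were 2.68%, 12.1%, 17.4% and 23.5%, against 3.97%, 20.6%, 29.98% and 25.7% of all genes. Recovery against 16 °C had 8 lower on day 18, and 5 higher and 19 lower on day 22; recovery against 26 °C had 7 higher and 2 lower on day 18, and 5 and 0 on day 22. Endosperm had 3 lower on day 7 and 11 higher on day 18, against 5.88% and 14.7% of all genes. At 16 °C against day 0, lower members became 31, 51 and 60 on days 7, 15 and 18, against 9.14%, 24.6% and 31.1% of all genes. Higher members became 1, 6 and 6, against 3.53%, 12.2% and 12.4%.

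A pseudocount of 0.1, which weights low genes more, gave 17 members above day 0 on day 1 at 16 °C. The share of all genes was not counted for this. Lower members at 26 °C on embryo days 7, 15, 18 and 22 were 19, 30, 23 and 33. These were 12.8%, 20.1%, 15.4% and 22.1% of members, against 6.01%, 27.7%, 33.5% and 26.9% of all genes. On day 15, 10 were higher and on day 22, 14, against 19.5% and 33.9%. Recovery had 11 lower than at 16 °C on day 18 and 20 on day 22, against 24.8% and 18.5% of all genes. Relative to 26 °C it had 6 higher and 4 lower on day 18, against 6.79% and 9.27%. On day 22 there were 7 and 2, against 8.39% and 2.48%. Endosperm had 19 lower and 1 higher on day 1, against 4.65% and 12.4% of all genes. Lower were 15 on day 3 and 13 on day 7, against 6.20% and 8.49%. On day 15, 12 were higher and 15 lower, against 18.9% and 15.3%. On day 18 these were 13 and 20, against 17.5% and 21.9%. At hour 1 they were 12 and 20, against 21.7% and 13.6%. At hour 24, 19 were higher, against 26.9%. At 16 °C against day 0, 2 members were higher on day 7 and 3 on day 18, against 3.61% and 11.4% of all genes.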
